A study of Mus musculus with 8 samples.

Results

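The alpha and beta tubulin isotypes described here are 10 genes, chosen by name: the alpha genes Tuba1a, Tuba1b and Tuba1c, and the beta genes Tubb2a, Tubb2b, Tubb3, Tubb4a, Tubb4b, Tubb5 and Tubb6. They are 10 of the 32567 genes in the RNA-seq count table, and each was read in all 4 libraries. Poly-A RNA was sequenced from mouse embryonic stem cells (ESC) and from cells that had been grown as embryoid bodies with retinoic acid, dissociated and plated (RA-DIFF, named differentiated EB in the labels), each from a wild-type (WT) line and from a huntingtin-null line. The null line carries the targeted inactivating allele Hdh ex4/5 on both copies of Htt, the mouse orthologue of the Huntington's disease gene, and both lines were carried through the same culture with the same agents. The methods state that feeder cells were removed over several passages before embryoid bodies were formed. With 1 library per condition and 1 cell line per genotype, no difference below has a replicate check, no p-value is given, and genotype cannot be told apart from the cell line. RA-DIFF cultures are bulk mixtures, so fewer cells of a type and less RNA per cell cannot be told apart.

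Microtubules are hollow polymers of dimers, each made of an alpha and a beta tubulin chain. Mammals encode each chain in several genes, the isotypes, whose proteins differ mainly in the acidic tail at the carboxyl end, the surface on which motors, microtubule-associated proteins and modifying enzymes act. Tubb3 (beta III) is the classical marker of newborn neurons, Tuba1a and Tubb2b are the main isotypes of migrating and differentiating neurons and are mutated in human cortical malformations, Tubb2a and Tubb4a are rich in brain, and Tuba1b, Tuba1c, Tubb4b, Tubb5 and Tubb6 are made in many dividing cells. Cells also limit their tubulin mRNA by autoregulation, in which Ttc5 recognises the nascent tubulin chain when free dimer is abundant.

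The isotypes lie in a few small clusters of the GRCm38 genome. Tuba1b (chr15:98931425-98934565), Tuba1a (chr15:98949841-98953551) and Tuba1c (chr15:99029891-99038105) are neighbours, as are Tubb2a (chr13:34074301-34078008) and Tubb2b (chr13:34127008-34130354). The others are single: Tubb5 (chr17:35833921-35838306), Tubb4a (chr17:57080066-57087782), Tubb3 (chr8:123411424-123422015) and Tubb4b (chr2:25222160-25224702), and the place of Tubb6 is given with its values. All coordinates are the gene bounds in the deposited table.

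The neighbours are near copies, which limits how well short reads tell them apart. The coding sequences of Tuba1a and Tuba1b have 1353 bases each and differ at 23 of them, an identity of 98.3%. Tubb2a and Tubb2b differ at 47 of 1335 bases (96.5%), whereas Tubb4a and Tubb5 differ at 220 of 1332 (83.5%). The last 60 coding bases of 5 beta genes before the stop codon, which encode most of the isotype-defining tail, are printed here 5′ to 3′ from GRCm38 because they show which isotypes a read can separate. Within each pair (Tubb2a and Tubb2b, Tubb4a and Tubb5), capitals mark the bases that differ from the partner. Tubb3 has no partner in this comparison and is in lower case throughout.
Tubb2a, chr13:34074471-34074530, minus strand: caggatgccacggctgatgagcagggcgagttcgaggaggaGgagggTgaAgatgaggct
Tubb2b, chr13:34127474-34127533, minus strand: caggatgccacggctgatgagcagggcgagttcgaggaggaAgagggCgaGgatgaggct
Tubb4a, chr17:57080693-57080752, minus strand: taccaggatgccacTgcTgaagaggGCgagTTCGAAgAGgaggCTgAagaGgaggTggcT
Tubb5, chr17:35834985-35835044, minus strand: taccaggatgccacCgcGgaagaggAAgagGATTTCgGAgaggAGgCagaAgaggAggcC
Tubb3, chr8:123421620-123421679, plus strand: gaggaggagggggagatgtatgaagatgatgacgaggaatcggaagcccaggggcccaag
Over these 60 bases Tubb2a and Tubb2b differed at 3 and Tubb4a and Tubb5 at 18. Across the exons, of all windows of 50 bases, the read length, the share found nowhere else in the genome was 33.9% for Tuba1a, 14.0% for Tuba1b, 45.1% for Tuba1c, 45.3% for Tubb2a and 50.9% for Tubb2b. It was 57.7% for Tubb4b, 88.8% for Tubb3, 98.9% for Tubb5 and 99.8% for Tubb4a, and every window of Tubb6 was unique. Tuba1a and Tuba1b had 675 windows in common, and Tubb2a and Tubb2b had 712. Levels within these pairs are therefore uncertain, and so are those of Tuba1c and Tubb4b, which also have many windows that are not unique. Shares are given below in reads, per kb of exon and per kb of unique exon. In the later annotation GENCODE vM21 the bounds of Tubb3 overlap Gm20388, and those of Tuba1a and Tuba1b overlap Gm49450, on the same strand. Tuba1b also overlaps Gm41396, and Tubb4b Fam166a, on the opposite strand. Fam166a was read 39 times or fewer in each library, and the other 3 overlapping genes were not analysed here.

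The targeted gene was read first. Levels are in CPM, the count of a gene relative to the total of its library. Htt stood at 164 CPM in ESC WT and at 114 CPM in ESC Htt-null, lower in the null line as labelled. In RA-DIFF it stood at 74.3 CPM in the library labelled WT and at 96.3 CPM in the library labelled Htt-null. The Htt reads of the RA-DIFF libraries thus go against the labels. The study's own supplementary values per condition also match the opposite RA-DIFF columns of the count table, while they match the ESC columns as labelled. The 2 RA-DIFF libraries are therefore called by their labels throughout, and every genotype direction in RA-DIFF would turn round if the labels were exchanged.

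Library totals ran from 63617410 to 110569127 counts. Of these totals 3 exceed the range of reads per library given in the study's methods, so the Wilson 95% intervals below, which cover counting error only, may be too narrow. Pluripotency markers (8 genes) summed to 5208 and 4650 CPM in ESC WT and ESC Htt-null and to 62.2 and 15.6 CPM in the RA-DIFF libraries labelled WT and Htt-null. Neuron markers (12 genes, tubulins left out) summed to 209, 226, 1453 and 733 CPM in the same order, and neural progenitor markers (8 genes) to 691, 643, 4519 and 5495 CPM. Markers of ESC were thus high in both ESC libraries and low in both RA-DIFF libraries.

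The 10 isotypes together took 2580 CPM in ESC WT (95% interval 2569 to 2590) and 2857 CPM in ESC Htt-null (2844 to 2870). They took 6463 CPM (6448 to 6478) in the RA-DIFF library labelled WT and 4773 CPM (4760 to 4787) in the one labelled Htt-null. Tubulin transcripts were thus a larger part of the counts in each RA-DIFF library than in either ESC library. After TMM scaling, edgeR's correction for composition, the summed level was 2.44-fold higher in RA-DIFF than in ESC for the libraries labelled WT and 1.76-fold higher for those labelled Htt-null. With the RA-DIFF labels exchanged, an alternative added after seeing the data, the order turned round, to 1.87-fold for WT and 2.29-fold for Htt-null. Between genotypes it was 1.07-fold higher in Htt-null ESC and 1.30-fold lower in RA-DIFF labelled Htt-null. The alpha genes took a larger part of the family reads in RA-DIFF, with 14.8% and 16.0% in ESC WT and ESC Htt-null and 20.2% and 20.1% in RA-DIFF labelled WT and Htt-null. Per kb of exon the alpha share was also larger in RA-DIFF, with 21.36%, 22.78%, 26.79% and 27.65% in the same order. That shift was not seen per kb of unique exon, where the alpha share was 58.7%, 60.1%, 59.2% and 60.1% in the same order. Whether the alpha part was larger in RA-DIFF hence depends on the length by which the counts are divided.

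Among the alpha genes, Tuba1a, the isotype of young neurons, took a larger part in RA-DIFF, and Tuba1b, the isotype of most dividing cells, a smaller one. Tuba1b was read at 298 CPM in ESC WT, 350 CPM in ESC Htt-null, 615 CPM in RA-DIFF labelled WT and 444 CPM in RA-DIFF labelled Htt-null. Tuba1a was read at 67.2, 85.0, 649 and 484 CPM in that order. Both genes were higher in each RA-DIFF library than in either ESC library, but Tuba1a by far more. The Tuba1a ratio of RA-DIFF to ESC was 9.40-fold (log2 ratio 3.23, 95% counting interval 3.20 to 3.27) for the libraries labelled WT and 5.99-fold (2.58) for those labelled Htt-null, against 2.01-fold and 1.33-fold for Tuba1b. Within the alpha reads, Tuba1a held 17.7% in ESC WT, 18.6% in ESC Htt-null, 49.8% in RA-DIFF labelled WT and 50.5% in RA-DIFF labelled Htt-null. Tuba1b went the other way, with 78.4%, 76.4%, 47.1% and 46.3% in that order. Per kb of exon, Tuba1a stood above Tuba1b in both RA-DIFF libraries, with 51.1% against 46.5% of the alpha level in the library labelled WT. Per kb of unique exon it did not, with 31.6% against 67.3% in that library, up from 9.01% in ESC WT. On all these scales the Tuba1a part of the alpha level was larger in the RA-DIFF libraries, while which gene led depends on the scale. Between the libraries of a stage the Tuba1a part of alpha reads differed by under 1 percentage point.

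Tuba1c, a further isotype of dividing cells, was read at 15.1 CPM in ESC WT, 23.4 in ESC Htt-null, 40.1 in RA-DIFF labelled WT and 31.3 in RA-DIFF labelled Htt-null. It was the smallest alpha part in every library, between 3.07% and 5.11% of alpha reads. Its RA-DIFF to ESC ratio was 2.58-fold for the libraries labelled WT and 1.40-fold for those labelled Htt-null. Its genotype ratio in ESC, 1.49-fold (log2 0.57, 0.47 to 0.68), was the next largest after Tubb3 but inside the fold limit, an absolute log2 ratio of 0.75, which the study's methods set.

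Tubb5, the beta I isotype of most dividing cells, was the most read gene of the family in each library: 1637 CPM in ESC WT, 1728 in ESC Htt-null, 3197 in RA-DIFF labelled WT and 2583 in RA-DIFF labelled Htt-null. Although its level was higher in RA-DIFF (1.90-fold and 1.57-fold), its share of family reads was lower there. That share was 63.5% (63.3 to 63.7), 60.5%, 49.5% and 54.1% in the same order. Tubb5 nonetheless made up the largest part of the difference in family level, 39.7% for the libraries labelled WT and 45.7% for those labelled Htt-null. Per kb of exon Tubb5 ranked highest in all 4 libraries (492 to 961 CPM per kb). Per kb of unique exon Tuba1b ranked highest in all 4 libraries, with 39.8% to 53.4% of the family, and Tubb5 held 15.9% to 22.3%. As the genes differ in how much of their exon is unique, neither scale settles which isotype had the highest level. Tuba1b has only 242 unique exon positions, so this rank rests on a short stretch. Apart from its mode, HTSeq was run with default settings per the methods, and its default leaves out reads aligned to more than 1 place, though a read pair that reaches a unique position can still align to 1 place.

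**Figure D1:**
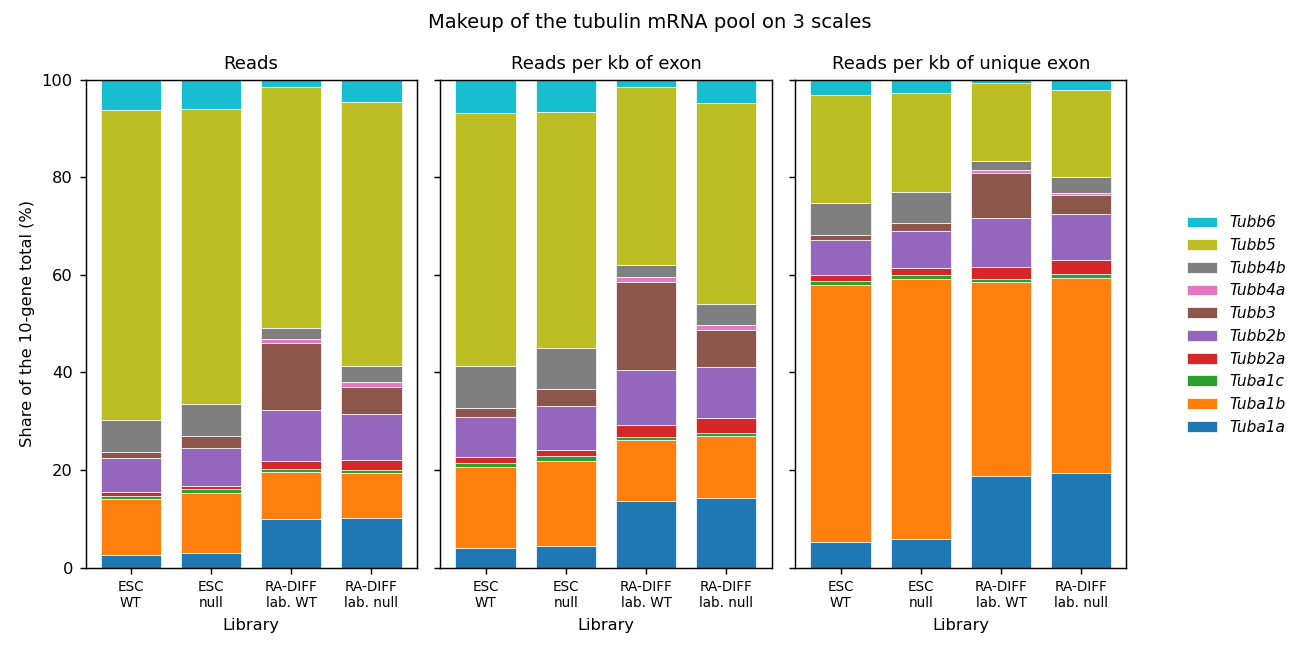
Share of the 10-gene total taken by each isotype, in percent, with 1 stacked bar per library, in reads (left), reads per kb of exon (middle) and reads per kb of exon positions unique in the genome (right). The parts of Tuba1a and Tubb3 are larger and those of Tubb5, Tubb4b and Tubb6 smaller in the RA-DIFF bars of each panel, while the largest part is Tubb5 on the left and in the middle and Tuba1b on the right.

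Tubb3, the neuronal beta III isotype, differed past the fold limit between the stages and between the libraries of each stage. It was read 2942 times in ESC WT (33.5 CPM, 32.3 to 34.7), 4420 times in ESC Htt-null (69.5 CPM, 67.5 to 71.6), 98047 times in RA-DIFF labelled WT (887 CPM, 881 to 892) and 26724 times in RA-DIFF labelled Htt-null (265 CPM, 262 to 268). It was higher in RA-DIFF than in ESC in each pair of libraries, and the pair labelled WT stood much further apart. The ratio was 25.8-fold (log2 4.69, counting interval 4.64 to 4.74) for the libraries labelled WT and 4.01-fold (2.00, 1.96 to 2.05) for those labelled Htt-null. With the RA-DIFF labels exchanged these log2 ratios became 3.00 for WT and 3.69 for Htt-null, so which genotype had the larger ratio depends on the labels. Tubb3 was also the only isotype past the fold limit between genotypes in ESC, 2.00-fold higher in Htt-null (log2 1.00, 0.93 to 1.07). That call was lost when edgeR's exact test at an assumed dispersion of 0.1, the value stated in the study's methods, was added to the fold limit. The call held at an assumed dispersion of 0.01. In RA-DIFF Tubb3 was 3.22-fold lower where the label read Htt-null (log2 -1.69, -1.71 to -1.67). With the RA-DIFF labels exchanged it would instead be higher in the null cells at both stages.

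The Tubb3 share of family reads was 1.30% in ESC WT, 2.43% in ESC Htt-null, 13.7% in RA-DIFF labelled WT and 5.55% in RA-DIFF labelled Htt-null. Per kb of exon it was the isotype with the next highest level after Tubb5 in RA-DIFF labelled WT (18.0% of the family) and ranked 5 in RA-DIFF labelled Htt-null (7.55%). Per kb of unique exon it ranked 5 in both, with 9.35% and 3.89% of the family. Part of the difference in makeup between the RA-DIFF libraries lay in this gene. With Tubb3 left out of the total, Tubb5 held 57.3% of the reads in each RA-DIFF library, and 64.3% and 62.0% in ESC WT and ESC Htt-null. Other shares still differed between the RA-DIFF libraries labelled WT and Htt-null: Tubb6 held 1.69% and 4.75% of the reads without Tubb3, Tubb2b 12.1% and 10.1%, and Tubb4b 2.55% and 3.64%. Tubb3 made up 40.6% of the net family difference between the RA-DIFF libraries and Tubb5 34.1%.

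Tubb3 lies on chromosome 8, whose other genes did not sit at 0 in the genotype comparisons. The median log2 ratio of Htt-null over WT over the 815 other tested genes of chromosome 8 was 0.36 in ESC, against -0.053 for genes elsewhere, and -0.22 in RA-DIFF by the labels. For RA-DIFF over ESC it was 0.56 for the libraries labelled WT, against 0.098 elsewhere, and 0.00 for those labelled Htt-null, against 0.18. The Tubb3 ratios between genotypes thus had the sign of its chromosome at each stage and were larger in size. The part of the chromosome-wide shift in the Tubb3 values was not tested.

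Over the 4 libraries, the genes whose pattern lay closest to that of Tubb3 were Elavl3, Cbln1, Mapk8ip2, Sox1 and Ctxn1, by the Euclidean distance between centred log2 levels among 7039 genes (distances 0.55 to 0.68). Elavl3, a neuronal RNA-binding protein, was read 1159, 1072, 24762 and 7712 times in ESC WT, ESC Htt-null, RA-DIFF labelled WT and RA-DIFF labelled Htt-null. Sox1, a transcription factor of neural progenitors, was read 1101, 1453, 31981 and 15194 times. All 5 were higher in RA-DIFF, and more so under the label WT than under Htt-null, which follows from how they were picked. A likeness over 4 libraries is a description of these libraries only.

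Tubb4a, the beta IVa isotype of brain, had the largest ratio of the family from the lowest start. It was read 113 times in ESC WT and 90 times in ESC Htt-null (1.41 CPM, 1.15 to 1.74), and 6499 and 4247 times in the RA-DIFF libraries labelled WT and Htt-null (58.8 and 42.1 CPM). The ratio was 44.5-fold (log2 5.47, 5.21 to 5.74) for the libraries labelled WT and 31.2-fold (4.96, 4.66 to 5.27) for those labelled Htt-null, intervals that overlap. Even so, it held only 0.909% and 0.882% of family reads in RA-DIFF. A large ratio here went with a small part of the pool, and the opposite held for Tubb5.

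Tubb2b and Tubb2a, the paired beta II genes, were both past the fold limit in RA-DIFF. Tubb2b was read at 177 CPM in ESC WT, 221 in ESC Htt-null, 677 in RA-DIFF labelled WT and 457 in RA-DIFF labelled Htt-null. Tubb2a was read at 20.2, 22.0, 103 and 89.0 CPM in that order. Tubb2b was thus the more read of the pair everywhere, and Tubb2a had the larger ratio: 4.98-fold and 4.24-fold, against 3.72-fold and 2.17-fold for Tubb2b. Per kb of exon, Tubb2b made up 8.13% to 11.2% of the family and Tubb2a 1.28% to 2.95%. With 712 windows in common, how reads were split between this pair is uncertain.

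Tubb4b and Tubb6 stood apart from the other beta genes. Tubb4b, the beta IVb isotype found in many tissues and in cilia, was read at 170, 187, 142 and 164 CPM in ESC WT, ESC Htt-null, RA-DIFF labelled WT and RA-DIFF labelled Htt-null, and was past the fold limit in no comparison (log2 ratios -0.30 to 0.26). Its share of family reads went from 6.59% and 6.53% in ESC to 2.20% and 3.44% in RA-DIFF, beside the higher total there. Tubb6, the beta V isotype (chr18:67390717-67402748), was read at 159 CPM in ESC WT, 170 in ESC Htt-null, 94.2 in RA-DIFF labelled WT and 214 in RA-DIFF labelled Htt-null. It was the only isotype whose RA-DIFF to ESC ratio had opposite signs under the 2 labels: 1.74-fold lower in RA-DIFF than in ESC for the libraries labelled WT (log2 -0.80, -0.83 to -0.76) and 1.32-fold higher for those labelled Htt-null (0.40, 0.37 to 0.44). Between genotypes its log2 ratio was 0.04 in ESC, and in RA-DIFF it was 2.36-fold higher in the library labelled Htt-null (log2 1.24, 1.20 to 1.27). Tubb3 and Tubb6 were thus the isotypes that differed most between the RA-DIFF libraries, in opposite directions.

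Counted over the family, 8 of the 10 isotypes were higher and 1 lower (Tubb6) past the fold limit in RA-DIFF labelled WT over ESC WT, in a comparison where 60.2% of the 15492 tested genes were past it, 34.0% higher and 26.2% lower. All 10 isotypes passed the limit on low expression, a mean log2 CPM above 0. For the libraries labelled Htt-null, 5 isotypes were higher (Tuba1a, Tubb2a, Tubb2b, Tubb3 and Tubb4a) and 0 lower, where 59.2% of genes were past it, 34.4% higher and 24.9% lower. Between genotypes in ESC, 1 of 10 was past the limit (Tubb3, higher), where 9.20% of genes were past it, 5.44% higher and 3.76% lower. In RA-DIFF by the labels, 2 of 10 were past it (Tubb6 higher, Tubb3 lower), where 21.2% of genes were past it, 11.9% higher and 9.31% lower. The shares of isotypes past the limit between genotypes thus lay near those over all genes, and more isotypes than genes at large were higher in RA-DIFF. With the exact test at a dispersion of 0.01 added, the counts of isotypes were as above in all 4 comparisons. At a dispersion of 0.1, the value stated in the study's methods, fewer isotypes were called in RA-DIFF over ESC under each label. Fewer genes over the whole table were called as well. The Tubb6 calls were lost both over ESC WT and between the RA-DIFF libraries, leaving Tubb3 in RA-DIFF as the only call between genotypes. With the RA-DIFF labels exchanged, 6 were higher and 0 lower for WT, and 8 higher and 1 lower for Htt-null. The median log2 ratios over the 10 isotypes were 1.63, 0.88, 0.13 and -0.34 in these 4 comparisons, against 0.12, 0.17, -0.04 and -0.01 over all tested genes. Because both genotype comparisons and both RA-DIFF comparisons draw on the same 4 libraries, they do not support each other.

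**Figure D2:**
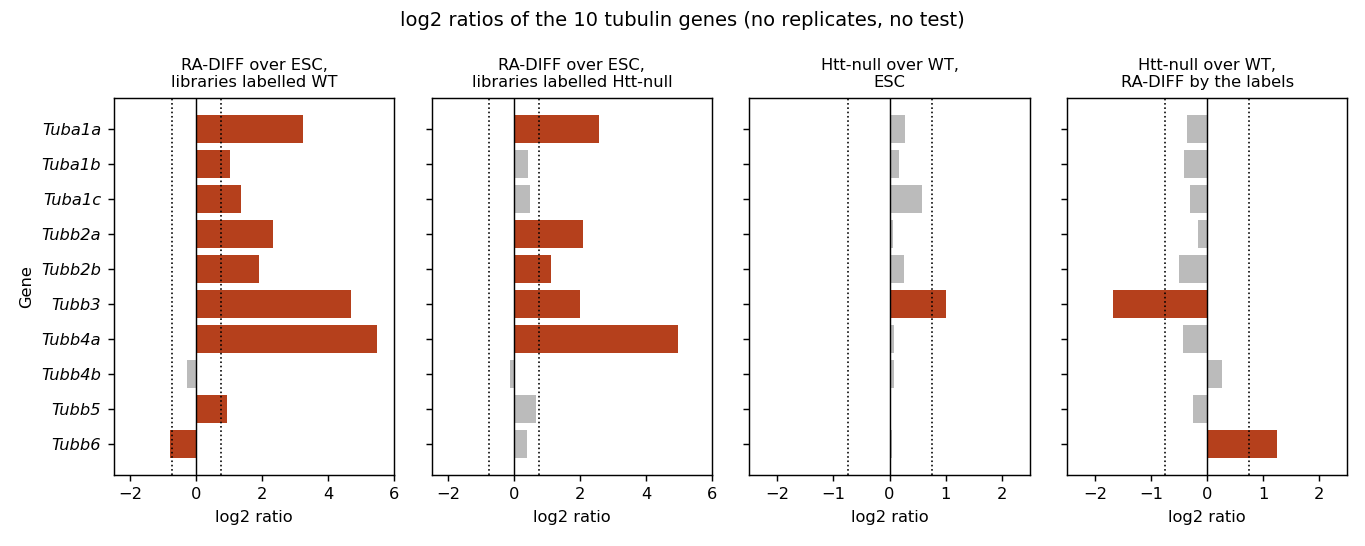
log2 ratios of the 10 isotypes in the 4 comparisons, as bars from 0 (no replicates, hence no error of the condition); dotted lines mark the fold limit of 0.75 on either side, and bars past it are red. The axis is narrower in the genotype panels, in which Tubb3 (1.00 and -1.69) and Tubb6 in RA-DIFF (1.24) are the bars past the limit.

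The promoter stretches of 3 isotypes are printed: Tubb3 and Tubb2a, past the fold limit in RA-DIFF under both labels, and Tubb5, the most read isotype. They come from RefSeq on GRCm38.p6 and hold the bases from 250 before the RefSeq start up to the first base of the annotated gene, 5′ to 3′ on the gene's strand. RefSeq promoters were found for 8 of the 10 isotypes, those of Tubb2b and Tubb6 not being among them. Capitals mark matches on either strand. The motifs searched were the TATA box, spelled TATAAA, the CCAAT box, spelled by its name, the GC box, spelled GGGCGG, and the E-box, spelled CAGCTG. Also searched were the core site of retinoic acid receptors, spelled AGGTCA, and a part of the RE1 element bound by the repressor REST, spelled TTCAGCACC.
Tubb3, chr8:123411303-123411423, plus strand: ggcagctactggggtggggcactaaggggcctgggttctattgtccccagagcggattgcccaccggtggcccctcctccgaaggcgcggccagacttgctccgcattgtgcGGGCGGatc
Tubb2a, chr13:34078009-34078258, minus strand: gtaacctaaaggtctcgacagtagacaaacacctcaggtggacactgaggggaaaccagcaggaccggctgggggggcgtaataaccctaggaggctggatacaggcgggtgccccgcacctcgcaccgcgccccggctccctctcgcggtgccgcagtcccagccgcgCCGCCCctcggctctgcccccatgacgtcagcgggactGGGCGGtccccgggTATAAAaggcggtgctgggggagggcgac
Tubb5, chr17:35838307-35838551, minus strand: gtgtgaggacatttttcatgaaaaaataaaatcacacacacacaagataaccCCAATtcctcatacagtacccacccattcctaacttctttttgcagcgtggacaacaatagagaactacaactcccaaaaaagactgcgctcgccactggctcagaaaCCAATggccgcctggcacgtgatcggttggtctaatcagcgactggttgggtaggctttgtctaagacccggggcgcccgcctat
Over the 250 bases before the start, CCAAT was found in 5 of the 8 isotypes (Tuba1a, Tuba1c, Tubb3, Tubb4b and Tubb5) and in 33.8% of all 32851 promoters. GGGCGG was found in 5 of 8 (Tuba1a, Tuba1b, Tubb2a, Tubb3 and Tubb4b), against 32.7% of all promoters. In Tubb3 the CCAAT match begins 77 bases before the RefSeq start, and a further GGGCGG match 46 bases before it. Both lie past the printed stretch, inside the bounds of the annotated gene. TATAAA was found in Tubb2a alone, beginning 29 bases before the start, and in 12.4% of all promoters. Tubb4b held 5 CCAAT matches, the largest number of any isotype. CAGCTG was found in Tuba1b alone (13.0% of all promoters), and neither AGGTCA (14.0%) nor TTCAGCACC (0.301%) was found in any of the 8. These windows are short, and no match says only that the letters are not in them.

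Among the other 10 tubulin genes of the table, 3 further alpha genes stood out as high in ESC. Of the 7 above the expression limit, 2 were higher and 3 lower in RA-DIFF for the libraries labelled WT, and 1 higher and 3 lower for those labelled Htt-null. Over all genes, 34.0% were higher and 26.2% lower for the libraries labelled WT, and 34.4% and 24.9% for those labelled Htt-null. Tuba3a, a testis-type alpha gene, was read 8223 and 4691 times in ESC WT and ESC Htt-null and 41 and 252 times in RA-DIFF labelled WT and Htt-null. Tuba3b was read 1237, 442, 12 and 125 times, and Tuba4a, an alpha isotype of differentiated tissues, 13603, 12909, 531 and 365 times in that order. Tuba3a and Tuba3b are near copies of each other, so their split is uncertain. Differentiated cells thus held less of these 3 alpha genes, and the 10 isotypes held 88.5% and 88.4% of the reads of all 22 tubulin genes and pseudogenes in ESC and 98.4% and 97.7% in RA-DIFF. Tubg1 and Tubg2, the gamma tubulins that nucleate microtubules, were higher in RA-DIFF labelled WT (log2 0.92 and 2.41). For the libraries labelled Htt-null their log2 ratios were 0.63, inside the limit, and 0.84. Tubg2 was read only 41 and 76 times in ESC WT and ESC Htt-null. Tubg2 was also past the limit between genotypes in ESC (1.30, higher in Htt-null), and Tuba3b was lower there (-1.07). Between the RA-DIFF libraries 2 of the 7 were past the limit, Tuba3a (2.80) and Tuba3b (3.55), both higher under the label Htt-null. Tuba3b, at 0.11 and 1.24 CPM in RA-DIFF labelled WT and Htt-null, passed the expression limit through its ESC level. Between genotypes 9.20% of all genes in ESC and 21.2% in RA-DIFF were past it.

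The folding route of tubulin did not follow the family total. Of 21 genes for prefoldin, the CCT chaperonin and the tubulin cofactors, 2 were higher and 3 lower in RA-DIFF for the libraries labelled WT and 1 higher and 2 lower for those labelled Htt-null, with medians of -0.37 and -0.42. Past the limit in either direction were 60.2% and 59.2% of all genes in these comparisons. Pfdn5, a prefoldin subunit, was the highest (log2 0.98 and 0.88), and Cct4, a CCT subunit, was among the lowest (-0.96 and -1.37). Between genotypes 0 of the 21 was past the limit at either stage, with ratios from -0.35 to 0.35, where 9.20% of all genes in ESC and 21.2% in RA-DIFF were past it. Ttc5, the autoregulation factor, was read at 47.9, 44.3, 61.6 and 47.7 CPM in ESC WT, ESC Htt-null, RA-DIFF labelled WT and RA-DIFF labelled Htt-null, within the limit throughout.

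The tubulin-binding proteins of neurons were mostly higher in RA-DIFF, as Tubb3 and Tuba1a were. Of 14 such genes, 13 were higher and 0 lower in RA-DIFF for the libraries labelled WT (median log2 3.52) and 13 higher and 1 lower for those labelled Htt-null (3.17), where 34.0% and 34.4% of all genes were higher. Dcx (doublecortin), which binds microtubules of migrating neurons, was read 5 and 8 times in ESC WT and ESC Htt-null and 50329 and 16488 times in RA-DIFF labelled WT and Htt-null. Stmn4, a stathmin that binds free tubulin, was read 0 times in both ESC libraries and 6422 and 1611 times in RA-DIFF, at least 1657-fold and 356-fold higher against a floor of 3 counts per library. Stmn2 was the exception, with 18559, 13603, 22798 and 9342 reads (log2 -0.07 and -1.14). Between the RA-DIFF libraries 7 of the 14 were lower in the one labelled Htt-null, 0 higher (median -0.76), beside 9.31% of all genes lower, among them Stmn4 (-1.81) and Mapt, the gene of tau (-1.63). In ESC 2 were higher and 3 lower in Htt-null, beside 5.44% and 3.76% of all genes. Dcx was among the higher with 8 against 5 reads, levels of 0.13 and 0.057 CPM. Their counting intervals overlap (0.064 to 0.25 and 0.024 to 0.13), and Dcx passed the expression limit only through its RA-DIFF level.

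Of 14 proteins that bind microtubules in many cell types, 7 were higher and 1 lower in RA-DIFF for each label (medians 0.65 and 0.76), and 0 were past the limit between genotypes at either stage. Among all genes the shares higher were 34.0% and 34.4%, and the shares lower 26.2% and 24.9%, for the libraries labelled WT and Htt-null, and between genotypes 9.20% of all genes in ESC and 21.2% in RA-DIFF were past the limit (5.44% higher and 3.76% lower in ESC, 11.9% and 9.31% in RA-DIFF). The next lists are to be read against the same shares. Mapre3 (EB3), an end-binding protein, was the highest (log2 3.29 and 3.83), and Map7 the lowest (-3.45 and -3.61). Of 19 enzymes that modify tubulin, 17 were above the expression limit, of which 10 were higher and 1 lower for the libraries labelled WT and 8 higher and 1 lower for those labelled Htt-null. Atat1, the tubulin acetyltransferase, was at 12.9, 13.5, 147 and 70.9 CPM in ESC WT, ESC Htt-null, RA-DIFF labelled WT and RA-DIFF labelled Htt-null, and Ttll6, a glutamylase, at 12.4, 29.6, 0.20 and 0.23 CPM. Hdac6, which removes that acetyl mark, was at 124, 124, 226 and 109 CPM. Between genotypes, 1 enzyme was higher and 1 lower in ESC (Ttll6 and Ttll11), and in RA-DIFF 1 was higher (Ttll7, log2 1.11) and 3 lower, including Atat1 and Hdac6. Ttll11 stood at 0.40 and 0.19 CPM in ESC WT and ESC Htt-null and passed the expression limit through its RA-DIFF level. Of 7 severing enzymes, 4 were higher and 1 lower for the libraries labelled WT and 3 higher and 1 lower for those labelled Htt-null. Fign (fidgetin) was the highest of them (log2 5.63 and 3.77) and the only severing enzyme past the limit between the RA-DIFF libraries (-1.14).

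The RA-DIFF libraries differed in markers of neurons, fibroblasts and pluripotent cells, in a comparison where 11.9% of all genes were higher and 9.31% lower under the label Htt-null. Of 12 neuron markers, 8 were lower and 0 higher under the label Htt-null than under WT (median log2 -1.16), and the summed level was 1453 against 733 CPM, beside 887 against 265 CPM for Tubb3. All 10 fibroblast and mesenchyme markers were higher under the label Htt-null (median 2.05), and their sum was 682 against 2662 CPM, beside 94.2 against 214 CPM for Tubb6. The largest were Acta2 (41.5 against 620 CPM) and Tagln (12.5 against 157 CPM), both of smooth muscle and myofibroblasts. In ESC the same list summed to 1314 and 1232 CPM in WT and Htt-null, nearly all of it Fn1 (1272 and 1202 CPM), while Col1a1 stood at 9.45 and 5.52 CPM and Dcn and Lum were each at 0 in a library. The list and Tubb6 did not go together over the stages. For the libraries labelled WT, 8 of the 10 markers were higher in RA-DIFF than in ESC and 1 lower (Fn1), while Tubb6 was lower (log2 -0.80). Among all genes 34.0% were higher and 26.2% lower there. Between the ESC libraries 6 of these 10 markers were lower in Htt-null, beside 3.76% of all genes. That tally holds markers that passed the limit on mean expression only through RA-DIFF, where they are high. Among them are Dcn, with 10 against 0 reads in ESC, and Postn, with 0.75 against 0.42 CPM. The tally is thus not a fair match for the share of all genes. Lum, with 0 reads in WT and 1 in Htt-null, lies under the floor of 3 counts and is given no direction. Of the 8 neural progenitor markers, 1 was higher (Vim, 1735 against 2835 CPM) and 3 lower (Hes5, Sox1 and Pax6) under the label Htt-null, with 5 of 8 below 0 and a median of -0.33, so their higher sum there was carried mainly by Vim. Glia markers (8 genes) summed to 45.3, 37.9, 426 and 872 CPM in ESC WT, ESC Htt-null, RA-DIFF labelled WT and RA-DIFF labelled Htt-null, 3 of 8 being higher and 2 lower between the RA-DIFF libraries, with Aqp4 at 0 in a library. Endoderm markers (8 genes, 4 above the expression limit) summed to 48.6, 28.8, 11.6 and 15.0 CPM, with 0 past the limit between the RA-DIFF libraries. Of 8 pluripotency markers, 7 were lower under the label Htt-null (62.2 against 15.6 CPM). The RA-DIFF libraries thus differ in several cell type lists at once, and the part of the cell makeup in the isotype differences was not tested.

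**Figure D3:**
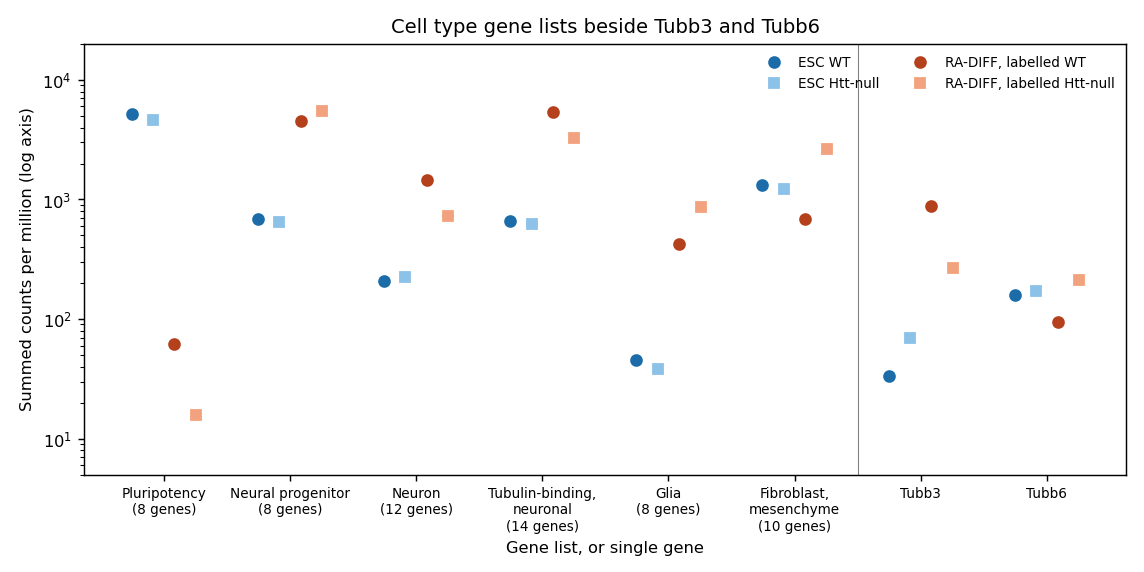
Summed level of each cell type list, and of Tubb3 and Tubb6 alone (right of the line), in CPM on a log axis, 1 point per library without error bars. Between the RA-DIFF libraries (red and light orange), the neuron list and Tubb3 (887 and 265 CPM) are lower in the one labelled Htt-null, and the fibroblast list and Tubb6 (94.2 and 214 CPM) are higher. The fibroblast sum in ESC is nearly all Fn1 (1272 and 1202 CPM), so its order over the stages is not that of most of its genes.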

How the data were processed

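Per the labels and the study's methods, poly-A RNA of 4 samples was sequenced as paired reads of 50 bases, aligned by the authors to GRCm38 with TopHat2 2.0.14 and counted per gene with HTSeq 0.6.1. The deposited unit is whole-number counts, not normalized. The methods name a strand-marking dUTP library, HTSeq's mode intersection-nonempty and otherwise default settings; the strand option itself is not named. Libraries were grouped by the labels' cell and genotype, 1 per group. With R 4.3.3 and edgeR 4.0.16, counts were scaled by TMM over the 4 libraries, and log2 ratios were taken with a prior count of 0.125. A gene was called past the fold limit at an absolute log2 ratio above 0.75 and a mean log2 CPM above 0 (prior count 2), the fold and expression limits of the study's methods, which also set a p limit at an assumed dispersion. No test entered the main calls, as there are no replicates. The ratio was tried on simulated counts for the genotype comparison in ESC alone, at a dispersion of 0.01. There 190 of 200 changed genes were recovered in the right direction, and 25 unchanged genes were called. The RA-DIFF comparisons were not simulated. Intervals are Wilson 95% intervals. DESeq2 1.42.0 size factors, library size, edgeR's exact test at assumed dispersions of 0.1 and 0.01, other share scales and exchanged RA-DIFF labels were the alternatives. Exon lengths and unique windows of 50 bases came from GENCODE vM21 and GRCm38. All isotypes are named, and per list the 2 largest and 2 smallest ratios, of which a few are printed, with further genes shown for their role. The isotypes and lists were chosen with earlier results of these data known. The small RNA libraries were not used here. Coding ends of the alpha genes are not reported here.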

Additional observations from a re-analysis of the deposited data

Results flagged for a closer look

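Tubb3 had genotype ratios of opposite sign at the 2 stages: the log2 ratio of Htt-null over WT was 1.0 in ESC and -1.69 in RA-DIFF by the labels. Each ratio rests on 1 library per group, so the difference was not tested, and with the RA-DIFF labels exchanged both would be above 0.

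Tubb6 had RA-DIFF over ESC ratios of opposite sign: -0.8 on the log2 scale for the libraries labelled WT and 0.4 for those labelled Htt-null. This difference was not tested either.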

How the results depend on the processing

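No replicate block was fitted, as each condition has 1 library, and for the same reason no library could be left out within a condition. A joint fit over both lines, with stage and genotype as additive terms, was not run. With the RA-DIFF labels exchanged, the log2 ratio of Tubb6 in RA-DIFF over ESC for WT became 0.44, the genotype ratios in RA-DIFF became 1.69 for Tubb3 and -1.24 for Tubb6, the differences between the genotype ratios of RA-DIFF and ESC became 0.25 for Tubb2b, 0.69 for Tubb3 and -1.27 for Tubb6, 9 isotypes instead of 5 passed the fold limit in RA-DIFF over ESC for Htt-null, and the fold of the summed level, an alternative chosen after seeing the data, became 1.87 for WT and 2.29 for Htt-null. With an exact test at an assumed dispersion of 0.1 added, 0 isotypes were past the limit between genotypes in ESC and 1 in RA-DIFF, with 252 and 1341 genes over the whole table, against 1159 and 3097 at a dispersion of 0.01. Without the limit on expression, the genes past the fold limit numbered 21715 and 21512 for RA-DIFF over ESC (labelled WT and Htt-null) and 10086 and 12126 between genotypes (ESC and RA-DIFF). With TMM-scaled totals the family took 2615, 2786, 6377 and 4892 CPM in ESC WT, ESC Htt-null, RA-DIFF labelled WT and RA-DIFF labelled Htt-null. In that order, the Tubb5 share was 51.8%, 48.5%, 36.5% and 41.4% per kb of exon, 22.3%, 20.3%, 15.9% and 17.9% per kb of unique exon, and 56.2%, 53.5%, 48.7% and 52.9% with all tubulin genes in the total. At a dispersion of 0.01 the counts of isotypes did not change, and with DESeq2 size factors or library size, counts of isotypes past the limit stayed within 1.5 times the reported ones, while 10 log2 values moved by more than their counting interval with DESeq2 size factors and 27 with library size. Depth limits Tubb4a in ESC (113 and 90 counts) more than any other isotype.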
